A study of Caenorhabditis elegans with 2 samples.

Results

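The histone genes of Caenorhabditis elegans were taken as all protein-coding genes whose name starts with his- in the Ensembl annotation of WBcel235, 72 of 19973 protein-coding genes. By the RefSeq product names, 17 encode H2A, 16 encode H2B, 15 encode H3, 5 encode H3.3 or an H3.3-like protein, 16 encode H4, 1 encodes the linker histone H1 (his-24) and 2 encode short proteins with a histone domain (his-39 and his-73). The study mapped MLS-2, a transcription factor with an HMX/NKX5-type homeodomain known from mesoderm, glia and neurons, by chromatin immunoprecipitation sequencing (ChIP-seq). There was 1 group of 2 biological replicates, and no second condition. The worms were of strain OP645, with genotype unc-119(tm4063) III; wgIs645. The wgIs645 insertion targets mls-2 and gives stable expression of MLS-2 with GFP-FLAG at its C-terminus. Whole embryos of mixed stage and pooled males and females were collected 2 h after egg-bleach synchronization, and their exact age is recorded as unknown. The antibody was directed against the GFP tag per the sample descriptions, although another label field names mls-2, so the signal is of the tagged transgene product in all embryonic cells together.

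Core histones H2A, H2B, H3 and H4 form the nucleosome around which DNA is wrapped, and the linker histone H1 binds the DNA entering and leaving it. The core histone genes of animals are present in many near-identical copies, lie in clusters and are mostly transcribed during DNA replication, when new chromatin needs histones. H2A is commonly paired with H2B, and H3 with H4, on either side of a short promoter that is shared by both genes. H3.3 is a replacement form of H3 that is deposited outside DNA replication, and its genes usually have introns.

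The data were lists of peaks ranked by the authors' signal value, whose scale is not stated and which is used here for ranks within a list. The thresholded list held 1925 peaks with signals of 212 to 2651 and a median of 290. These were the 1925 strongest of 30000 regions in the list from pooled replicates, and each replicate had its own list of 30000 regions. Of the 1925 peaks, 63.4% were matched within 100 bp by a summit from the top 1925 regions of both replicates, 86.6% in replicate 1 and 73.4% in replicate 2. Read totals were not used here, so the depth is unknown. With 1 group, every count below is a description without a test, and exact (Clopper-Pearson) 95% intervals cover counting error only. They treat genes as independent, although paired genes can share a summit, so the intervals on gene counts are too narrow. A gene counted as having a promoter summit when the highest point of a peak lay in the window reaching 1000 bp upstream and 100 bp downstream from the 5′ end of any protein-coding transcript of it.

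A promoter summit of the thresholded list was found at 13 of the 72 histone genes, or 18.1% (9.98 to 28.9%), against 5.64% of all protein-coding genes. The 13 genes were his-5, his-6, his-24, his-31, his-32, his-37, his-59, his-60, his-61, his-62, his-67, his-68 and his-72. They shared 10 distinct peaks, because genes that face away from each other over a common promoter share the summit. In the full pooled list of 30000 regions the count was 24 of 72, or 33.3% (22.7 to 45.4%), against 33.3% of all protein-coding genes, so at that list length the share of the histone genes was the same as the background. Among the 1925 strongest regions of replicate 1 the count was 13 of 72, against 5.69% of all genes. Among those of replicate 2 it was 10 of 72, or 13.9%, against 5.24%, and these 10 genes shared 6 distinct peaks. Genes of the H4 type had a thresholded summit most often by count, with 5 of 16 genes, then H3 with 3 of 15, H2A with 2 of 17, H2B with 1 of 16 and H3.3 with 1 of 5. The exact intervals of these types overlapped, at 11.0 to 58.7% for H4 and 0.158 to 30.2% for H2B. Paired genes of different types count the same summit, so the types are not independent of each other.

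The genes fell into 14 clusters of at least 2 genes, with 67 genes in all, and 5 single loci, where genes at most 10 kb apart were joined. There were 31 pairs of histone genes with divergent 5′ ends at most 1000 bp apart, of which 16 paired H2A with H2B, 14 paired H3 with H4 and 1 paired H4 with H2A. The sequence between their 5′ ends was 227 to 368 bp long, and the median of the distinct lengths, each taken once, was 256 bp. A thresholded summit lay in the windows of both genes at 5 of the 31 pairs, or 16.1% (5.45 to 33.7%), against 11.6% of all 1745 divergent pairs of protein-coding genes. The 5 were 3 of the 14 H3–H4 pairs, 1 of the 16 H2A–H2B pairs and the single H4–H2A pair. The Ensembl 5′ end is not always a measured transcription start, since 64 of the 72 genes had no annotated 5′ UTR.

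**Figure D1:**
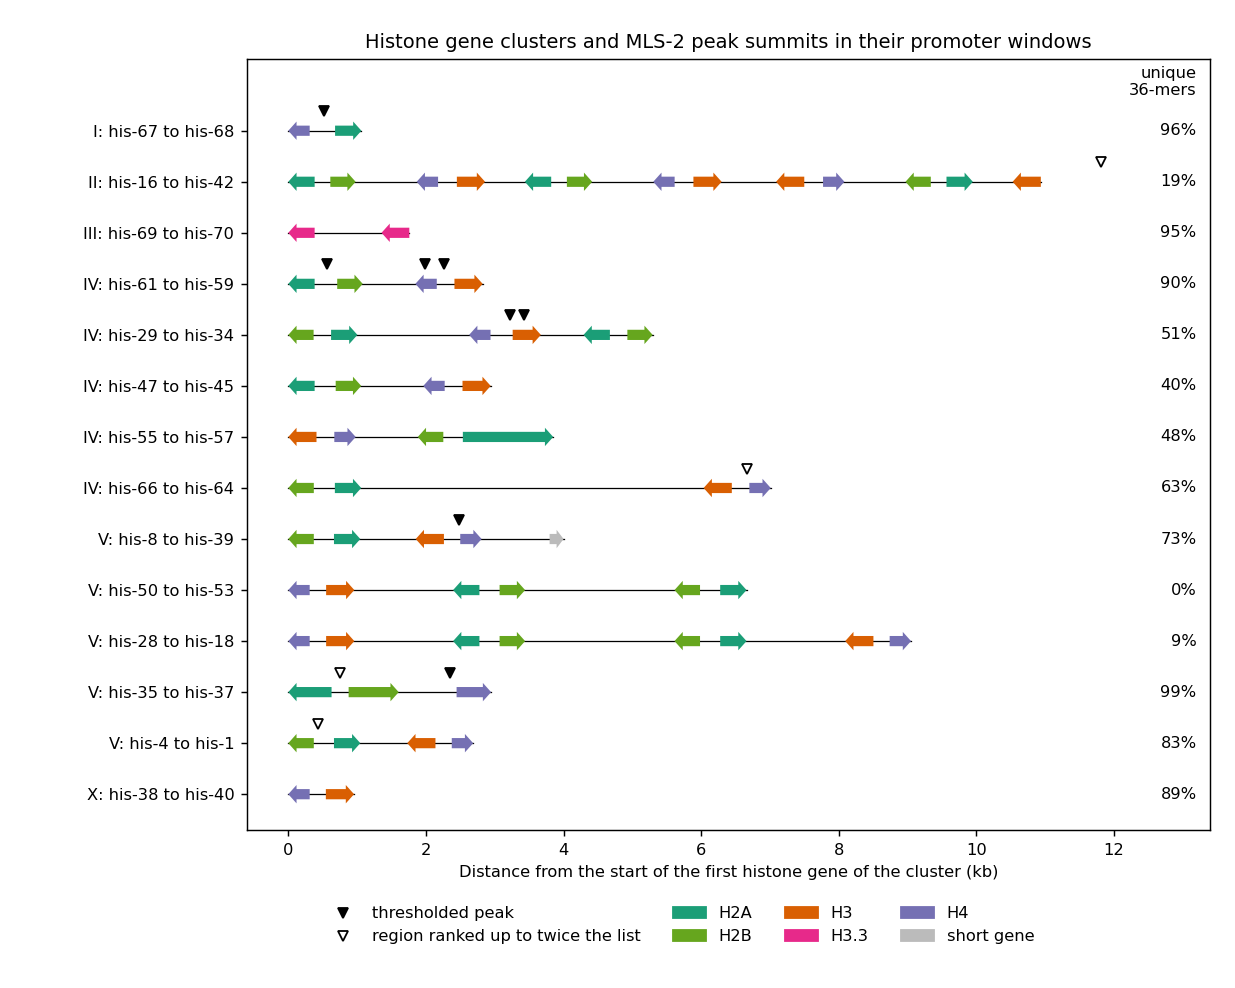
The 14 histone gene clusters, each drawn from the start of its first gene along the x axis (kb), with arrows for genes in their direction of transcription, coloured by histone type. Filled triangles mark summits of the thresholded list in histone promoter windows, open triangles mark regions outside that list ranked up to 3850 in the pooled list, and the percentage at the right is the share of 36-base sequences of the cluster that occur once in the genome. The clusters on chromosome V with 0% and 9% unique sequence carry no triangle.

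The DNA sequences below show the promoters on which the positional results rest. They are in WBcel235 (ce11), read 5′ to 3′ from RefSeq, and capitals mark TATAAA and the 8-base word GGGGACAC on either strand. The H3–H4 promoters run from the H3 gene to the H4 gene. Those of his-6/his-5 and his-60/his-59 had a peak, at ranks 1668 and 1038 of the pooled list. That of his-28/his-27 is shared letter for letter with his-50/his-49 and had no region in any list. That of his-63/his-64 had a region at rank 2596, just outside the thresholded list.
his-6/his-5, chrV:8534978-8535213, plus strand, 236 bp: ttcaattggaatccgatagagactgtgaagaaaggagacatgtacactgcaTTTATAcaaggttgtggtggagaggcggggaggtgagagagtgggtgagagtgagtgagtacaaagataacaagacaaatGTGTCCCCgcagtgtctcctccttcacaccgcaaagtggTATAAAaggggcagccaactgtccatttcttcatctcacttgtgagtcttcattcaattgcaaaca
his-28/his-27, chrV:8889800-8890037, minus strand, 238 bp: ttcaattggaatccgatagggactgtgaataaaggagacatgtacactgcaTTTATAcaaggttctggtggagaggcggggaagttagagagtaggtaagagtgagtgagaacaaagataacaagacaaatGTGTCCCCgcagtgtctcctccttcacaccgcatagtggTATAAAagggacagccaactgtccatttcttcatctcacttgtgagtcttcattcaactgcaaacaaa
his-60/his-59, chrIV:7487993-7488248, minus strand, 256 bp: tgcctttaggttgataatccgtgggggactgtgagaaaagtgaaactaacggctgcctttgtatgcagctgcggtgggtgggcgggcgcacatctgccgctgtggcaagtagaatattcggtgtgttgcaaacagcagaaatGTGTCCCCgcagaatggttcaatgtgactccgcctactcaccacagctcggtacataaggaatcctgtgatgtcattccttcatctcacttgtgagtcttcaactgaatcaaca
his-63/his-64, chrIV:11406862-11407115, plus strand, 254 bp: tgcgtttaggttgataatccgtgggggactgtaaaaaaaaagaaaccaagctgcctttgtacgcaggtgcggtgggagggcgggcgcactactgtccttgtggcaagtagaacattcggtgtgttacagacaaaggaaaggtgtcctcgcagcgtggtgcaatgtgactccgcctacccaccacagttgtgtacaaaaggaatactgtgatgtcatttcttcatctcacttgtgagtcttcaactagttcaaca
The promoter of his-16/his-15 runs from the H2A to the H2B gene, is shared letter for letter with his-12/his-11 and his-44/his-43, and had no region in any list.
his-16/his-15, chrII:13818144-13818370, plus strand, 227 bp: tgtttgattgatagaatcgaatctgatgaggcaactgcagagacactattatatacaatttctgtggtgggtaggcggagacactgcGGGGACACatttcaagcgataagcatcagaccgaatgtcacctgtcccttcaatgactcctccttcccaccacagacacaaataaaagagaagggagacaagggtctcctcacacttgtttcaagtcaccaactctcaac
The last 3 are the 101 bp centred on the summits of the H2A–H2B promoter with the strongest peak, of the strongest H3–H4 promoter, and of the single H4 gene his-37.
his-61/his-62, chrIV:7486346-7486446, plus strand, 101 bp: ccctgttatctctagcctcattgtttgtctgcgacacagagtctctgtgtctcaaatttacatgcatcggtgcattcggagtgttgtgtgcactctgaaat
his-31/his-32, chrIV:8334212-8334312, minus strand, 101 bp: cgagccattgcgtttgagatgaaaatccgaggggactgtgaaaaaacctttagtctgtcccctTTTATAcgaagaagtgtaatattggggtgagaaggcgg
his-37, chrV:9546959-9547059, plus strand, 101 bp: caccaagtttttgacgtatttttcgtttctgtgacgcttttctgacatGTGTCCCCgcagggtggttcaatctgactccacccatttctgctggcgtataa

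The word GGGGACAC was found on either strand within 250 bp upstream of 44 of the 72 histone genes, or 61.1%, against 0.471% of all protein-coding genes (94 of 19973). It was added after the promoter sequences had been seen. Of the 13 genes with a thresholded summit 10 held it, and of the 59 without 34 held it. The letters of CAATTAA, the motif sought for HMX-type homeodomains, were within 250 bp upstream of 1 of 72 histone genes, against 7.99% of all genes. Its core CAATTA was there at 7 of 72, or 9.72%, against 21.3%. In the whole window of 1000 bp upstream to 100 bp downstream, CAATTAA was at 6 of 72, or 8.33%, against 29.6%. In that longer window CAATTA was at 37 of 72, or 51.4%, against 63.1%. Within 250 bp upstream, the letters TATAAA, those of the TATA box of core promoters, were at 47 of 72 histone genes, or 65.3%, against 35.2% of all genes. They were counted at any position and on either strand, so a match need not be a working TATA box. GGGCGG was at 20 of 72, against 6.94%, GAGAGA at 33 of 72, against 19.1%, and CACGTG at 1 of 72, against 4.94%. Copies of a promoter share its letters, so the 72 genes are not independent observations. Within the 101 bp around the 10 summits, CAATTAA, its core CAATTA and TAATTA were absent, against 1.71%, 5.82% and 3.64% of all 1925 summits. GGGCGG and CACGTG were also at 0 of the 10, against 9.51% and 1.92%. GAGAGA was at 1 of the 10, against 24.9%, TATAAA at 2, against 3.53%, and GGGGACAC at 3, against 0.883% (17 of 1925). The G and C content of these 10 summit sequences was 45.5 to 55.4%, with a median of 46.5%, and the median over all peaks was 49.5%.

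The strongest peak at a histone promoter lay between his-67, an H4 gene, and his-68, an H2A gene, the only pair of that kind. It covered chrI:9988816-9989149 with a signal of 752 and rank 96. It ranked 79 in replicate 1 (signal 531) and 156 in replicate 2 (signal 223), with summits at most 6 bp from the pooled one. The summit was 203 bp upstream of his-67 and 166 bp upstream of his-68, close to the middle of the shared promoter. It also lay in the promoter window of alg-5, an Argonaute gene, so the peak cannot be assigned to the histone genes alone.

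The cluster of his-61, his-62, his-60 and his-59 on chromosome IV held 3 of the 10 peaks, and all 4 of its genes, which encode H2A, H2B, H4 and H3, had a promoter summit. The peak between his-61 and his-62 covered chrIV:7486226-7486559, had a signal of 516 and ranked 259, with ranks of 284 in replicate 1 and 254 in replicate 2. Its summit stood 179 bp upstream of his-61 and 149 bp upstream of his-62. The peak between his-60 and his-59 covered chrIV:7488036-7488203 with a signal of 280 and rank 1038. It ranked 856 in replicate 1 and 2477 in replicate 2, so only replicate 1 placed it among its 1925 strongest regions. A further peak at chrIV:7487710-7487889, with a signal of 299 and rank 897, had its summit in the coding exon of his-60, 429 bp upstream of his-59. It ranked 670 in replicate 1 and 2564 in replicate 2. The H2A–H2B promoter thus held the strongest of the 3 peaks, ranked alike by both replicates. The peak in the shared H3–H4 promoter and the one inside his-60 were weaker and ranked lower in replicate 2.

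The cluster of his-29 to his-34, also on chromosome IV, had peaks at its central H3–H4 pair, and none at its outer H2A–H2B pairs. The peak between his-31, an H4 gene, and his-32, an H3 gene, covered chrIV:8334030-8334351 with a signal of 326 and rank 739. It ranked 737 in replicate 1 and 900 in replicate 2. The summit was 43 bp upstream of his-32 and 279 bp upstream of his-31, on the H3 side of the promoter. A partly overlapping peak at chrIV:8334228-8334697, rank 1195 with a signal of 263, had its summit in the coding exon of his-32, and the window of his-31 held it too. Its ranks were 904 in replicate 1 and 2633 in replicate 2, and the replicate 1 summit was 73 bp from the pooled one, the largest such distance among the 10 peaks. The outer pairs his-29/his-30 and his-33/his-34 have identical promoters, and no list placed a region in the windows of these 4 genes.

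Of the remaining core histone peaks, both were on chromosome V and both stood at H4 genes. The peak at his-37 covered chrV:9546774-9547243 with a signal of 366 and rank 569, and ranked 518 in replicate 1 and 1008 in replicate 2. Its summit was 96 bp upstream of his-37, which is not part of a divergent histone pair. The peak between his-5 (H4) and his-6 (H3) covered chrV:8535093-8535210 with a signal of 228 and rank 1668, the weakest of the 10. Its summit was 21 bp upstream of his-5 and 216 bp upstream of his-6. It ranked 2708 in replicate 1 and 1202 in replicate 2, and was the only one of the 10 peaks that replicate 1 left outside its 1925 strongest regions.

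The H1 gene his-24, on chromosome X, had a peak at chrX:14489886-14490355 with a signal of 286 and rank 997. It ranked 1331 in replicate 1 and 736 in replicate 2, and its pooled summit was 27 bp downstream of the 5′ end, in the annotated 5′ UTR. Both replicates placed this peak among their strongest regions. Of the 5 genes of the H3.3 type, which serve nucleosome replacement, his-72 alone had a thresholded peak. It covered chrIII:12368606-12369075 with a signal of 301 and rank 884, and ranked 754 in replicate 1 and 2222 in replicate 2. The summit lay in an intron of his-72, 677 bp upstream of the 5′ end of a shorter transcript, so it counted through that transcript only. The gene his-71 had its strongest promoter region at rank 5569 of the pooled list, with ranks of 11477 in replicate 1 and 4295 in replicate 2, beyond the thresholded list in all 3. The other three, his-69, his-70 and his-74, had no promoter region in the pooled list or in either replicate list.

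Just below the threshold, past rank 1925 and up to rank 3850 of the pooled list, 4 regions stood at histone promoters. The region between his-35 (H2A) and his-41 (H2B) ranked 2311 with a signal of 195, and ranked 1777 in replicate 1 and 3662 in replicate 2. It also lay in the promoter window of C50F4.6, which is not a histone gene. The region between his-63 (H3) and his-64 (H4) ranked 2596 with a signal of 186, with ranks of 1974 in replicate 1 and 6476 in replicate 2. The region between his-3 (H2A) and his-4 (H2B) ranked 3255 with a signal of 170, with matched regions at rank 2838 in replicate 1 and 9345 in replicate 2. Replicate 2 had a stronger region, at rank 2463, whose summit inside his-4 lay in both windows but more than 100 bp from the pooled summit, so which replicate ranked this promoter higher depended on the match. The regions at his-35/his-41 and his-63/his-64 ranked higher in replicate 1 than in replicate 2. The region upstream of the H3 gene his-42 ranked 3517 with a signal of 165, with ranks of 4902 in replicate 1 and 3198 in replicate 2, and lay within 200 bp of the small RNA gene C47F8.9. None of the 10 thresholded peaks lay that close to a small RNA gene. Another 14 pooled regions in histone windows ranked past 3850.

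**Figure D2:**
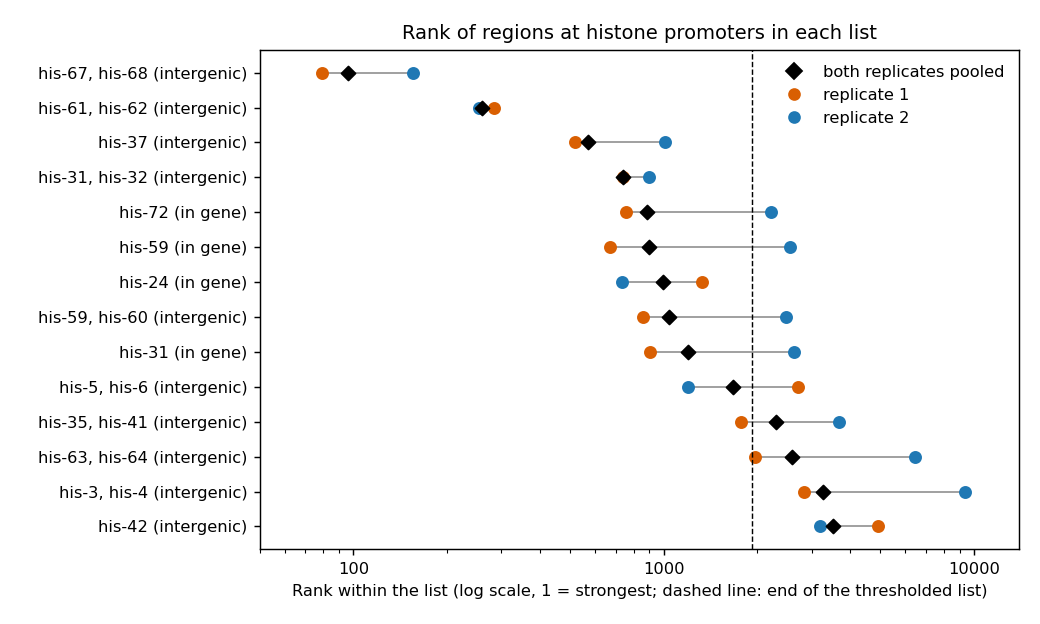
Rank (x axis, log scale) of the 10 thresholded peaks and the 4 regions just below them in the pooled list (diamonds), in replicate 1 (orange) and in replicate 2 (blue). The dashed line is rank 1925, where the thresholded list ends. The peaks at his-67/his-68, his-61/his-62, his-37, his-31/his-32 and his-24 lie left of it in all 3 lists, and 4 of the other 5 lie right of it in replicate 2.

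Both replicates held a region with a summit within 100 bp of each of the 10 peaks, and 19 of the 20 distances from a pooled to a replicate summit were at most 25 bp. Among their 1925 strongest regions, replicate 1 held 9 of the 10, against 86.6% of all 1925 peaks, and replicate 2 held 6, against 73.4%. Both held 5 of the 10, against 63.4%. Replicate 1 ranked 7 of the 10 peaks higher than replicate 2 did, and the same share over all 1925 peaks was not counted. These distances were capped by the 100 bp match and taken from a summit made from both replicates, so larger shifts could not appear. Within that limit the matched summits lay close to the pooled one, while ranks varied between replicates.

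Within the shared promoters the summits did not keep 1 position. At his-67/his-68 and his-61/his-62 they were near the middle, at his-31/his-32 on the H3 side, 43 bp from his-32, and at his-6/his-5 on the H4 side, 21 bp from his-5. At his-60/his-59 the summit was 98 bp from the H4 gene his-60 and 159 bp from the H3 gene his-59. At his-63/his-64, whose region was below the threshold, the summit was 28 bp upstream of his-64. Of the 10 peaks, 6 had an intergenic summit, 2 had a summit in the coding exon of a neighbouring histone gene, and those of his-24 and his-72 were in the 5′ UTR and in an intron.

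**Figure D3:**
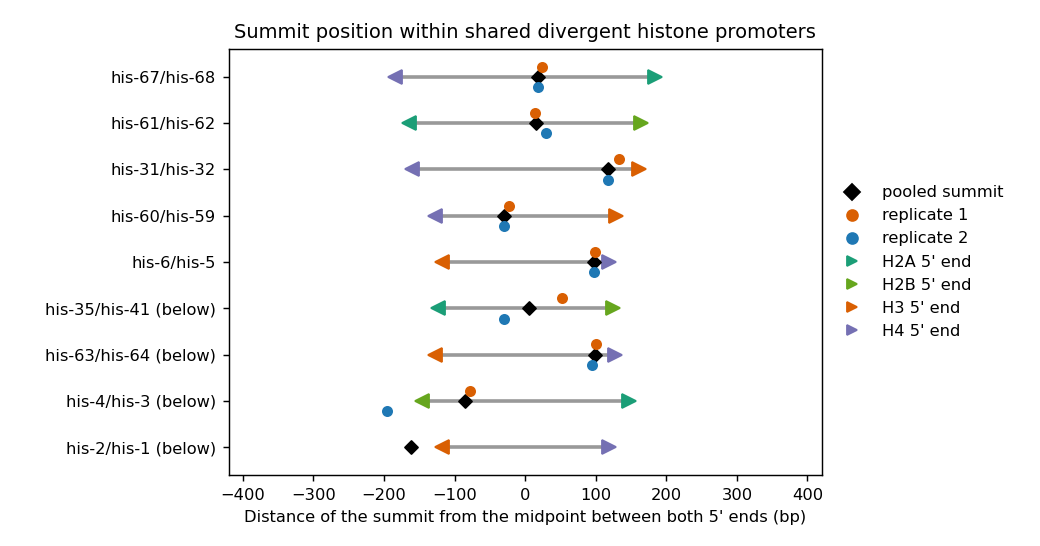
Position of the summit relative to the midpoint between both 5′ ends (x axis, bp) in the 9 divergent histone promoters with a region in the pooled list, ordered by rank, with those outside the thresholded list marked as below. Arrowheads mark the 5′ ends coloured by histone type, diamonds the pooled summit and circles the summit of the strongest region of each replicate in both windows. Summits at his-67/his-68 and his-61/his-62 lie near the midpoint, and those at his-6/his-5 and his-63/his-64 near the H4 end.

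Because many histone promoters are copies of each other, the share of sequence that occurs once in the genome was measured for each window from its 36-base stretches. The median was 25.3% for the 72 histone windows, against 100% for all protein-coding genes. More than 90% of the window was unique for 11 of the 72 histone genes, or 15.3%, against 86.5% of all genes, and 20 histone windows held no unique 36-base stretch at all. Among the 11 histone genes over 90%, 5 had a thresholded summit, against 5.94% of all genes in that class, and 9 had a pooled region, against 34.4%. Among the 33 histone genes with 10 to 90% unique sequence, 8 had a thresholded summit, against 4.11% of all genes in that class, and 15 had a pooled region, against 29% of them. Among the 28 under 10%, 0 had either, against 0% of the 256 protein-coding genes in that class for the thresholded list and 0% for the pooled list. No protein-coding gene of the lowest class, histone or other, thus had a promoter summit in the thresholded or the pooled list.

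Of the 40 histone windows with under 50% unique sequence, 0 held a pooled region, against 4.15% of all 603 protein-coding genes below that share. Regions in a replicate list were held by 2, those of his-17 and his-26. The sets are unlike, since 28 of the 40 were under 10% unique, where no gene had a pooled region, against 256 of the 603. This 50% limit was set after the values had been seen. The lowest unique share of a window with a pooled region was 55.4%, at his-64, and with a thresholded summit 60.2%, at his-6. Over the whole pooled list, 29 of 30000 regions (0.0967%) had under 10% unique sequence, against 2.84% of 470-bp tiles of the genome. How reads that fit several places were treated, and how long they were, is not given in the sources used here. A read from an identical copy cannot be assigned to 1 copy, so for such promoters the lists say nothing on whether MLS-2 was there, and the part of sequence repeats in the counts was not tested.

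**Figure D4:**
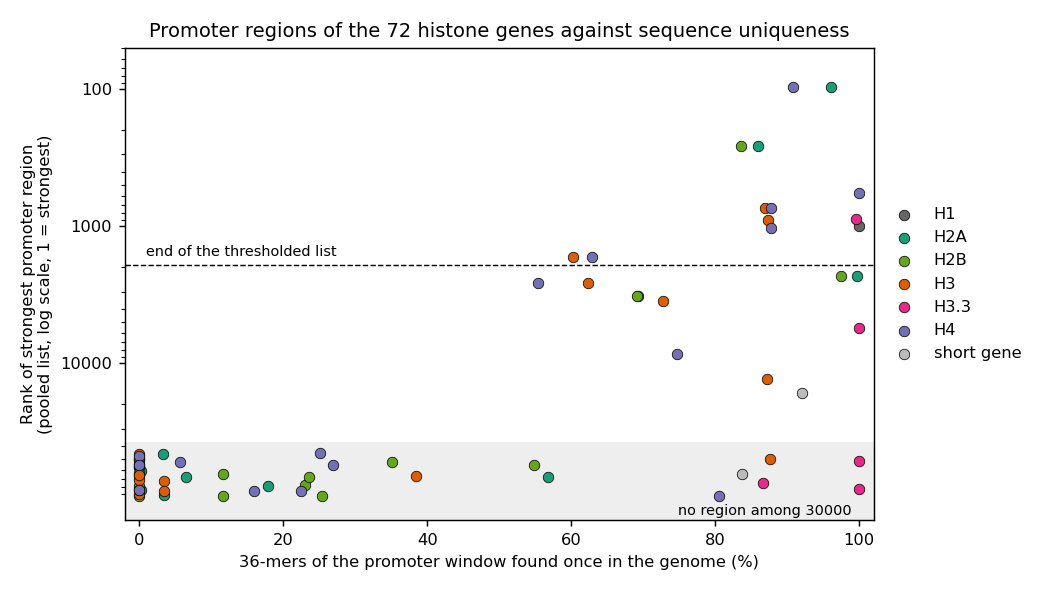
Each point is 1 of the 72 histone genes, coloured by type, with the share of 36-base stretches of its promoter window that occur once in the genome on the x axis (%) and the rank of its strongest promoter region in the pooled list on the y axis (log scale, strongest at the top). Genes in the grey band, spread vertically for legibility, have no region among 30000. No histone window under 50% unique has a ranked region, and above 50% there are windows with and without one.

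The 31 shared promoters divided in the same way. An identical copy of the whole promoter existed for 16, which held no unique 36-base stretch and no region in the windows of both genes in the pooled or replicate lists. Of the 15 without an identical copy, 9 had a pooled region and 5 had a thresholded summit. Over all 1745 divergent pairs, 11.6% had a thresholded summit in both windows, and the pooled share was not counted. Neither share was counted over divergent pairs without an identical copy alone, so the 15 have no like background. The 15 were not all unique, with shares of 0 to 100% and a median of 100%. Those among them with at most 16.1% unique sequence had no region in the windows of both genes. The 8-gene cluster of his-28 to his-18 and the 6-gene cluster of his-50 to his-53, both on chromosome V, had 9.01% and 0% unique sequence, and no pooled summit within 1000 bp. The 13-gene cluster on chromosome II, with 19.5% unique sequence, had a pooled region in a histone window only at his-42, its last gene.

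Near copies differed in their lists. The promoter of his-6/his-5, with a peak, was 94.9% identical to its closest relative his-17/his-18, which had 1.00% unique sequence and none. It was also 90.3% identical to that of his-2/his-1 and 88.1% to that of his-38/his-40. Both of these were wholly unique and had no thresholded peak. The promoter of his-60/his-59, with a peak, was 86.8% identical to that of his-46/his-45, of which 16.1% was unique and which had none. Those of his-61/his-62 and his-31/his-32 had their closest relatives at 80.4% and 63.2% identity. Each of the 5 shared promoters with a thresholded summit thus had no identical copy.

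Unique sequence was not accompanied by a region everywhere. The H4–H3 pair his-38/his-40 on chromosome X had a shared promoter of wholly unique sequence and no pooled region. The H3.3-type genes his-69 and his-74 had windows of wholly unique sequence and no region in any list. The pair his-2/his-1, again with a wholly unique promoter, had its strongest region in both windows at rank 13049 with its summit inside his-2. These 4 loci were named after their values had been seen.

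Genes for other histone variants and for histone supply, a list of 26 written with earlier results known, were set beside the his- genes. A thresholded promoter summit was found at 7 of the 26, against 5.64% of all protein-coding genes, and a pooled region at 17, against 33.3%. Among 11 variants it was found at 3, with hil-7, an H1-like gene, at a signal of 433 and rank 395, htz-1, the H2A.Z gene, at 297 and rank 908, and hcp-3, the centromeric H3 gene, at 278 and rank 1058. Among 15 supply genes it was found at 4. These were chaf-2, a subunit of the chromatin assembly factor CAF-1, at 462 and rank 339, and unc-85, an Asf1 chaperone, at 413 and rank 434. The others were lin-53, a histone-binding protein, at 312 and rank 820, and xnp-1, a relative of the remodeller ATRX, at 262 and rank 1211. The gene cdl-1, which encodes the protein that binds the stem-loop of histone mRNAs, had a region at rank 3841, outside the thresholded list.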

How the data were processed

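The files used were the ce11 peak lists of 2 replicates, of both pooled and of thresholded peaks. The signal per peak was deposited by the authors, who per the deposited file descriptions made the lists from alignments together with a control alignment, as peaks and background for an irreproducible discovery rate analysis. Peak caller, aligner, threshold, read length, versions and depth are not given in the labels or file descriptions used here. The optimal list equals the 1925 pooled regions of highest signal, checked on the files.

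Summits (start plus offset, 1-based) were set against Ensembl release 115 and the RefSeq sequence of WBcel235, which is ce11, with Python 3.11.15, numpy 2.4.6, pandas 2.3.3, scipy 1.17.1 and Biopython 1.88. Ensembl gives 72 genes 50 names, so RefSeq symbols, matched at identical coordinates for 72 of 72, are printed. Replicate regions matched within 100 bp. Motifs were sought on both strands. The summit and 36-base counting was tested on simulated data. The rule for named genes took those with a thresholded summit or a region up to rank 3850, and his-24, his-71 and his-72 whatever their values. Other his- genes are named to identify a cluster, pair or copy, to complete the H3.3 type, or after their values were seen (his-1, his-2, his-17, his-26, his-38, his-40, his-69, his-74). Members, lists and tests were chosen with earlier results of these data known. The control experiment and the ce10 lists were not used here.

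Alternatives were a list of 962 peaks, each replicate alone, windows of 500 and 2000 bp, peak overlap, the gene's own 5′ end, nearest genes within 5000 bp, all pooled regions, unique windows alone, and peaks away from small RNA genes. Cluster distances of 5 and 20 kb, pair distances of 500 and 2000 bp and 50-base stretches were also tried, and 50-base windows, GGGGACAC and the 250-bp motif window were added after seeing the data.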

Additional observations from a re-analysis of the deposited data

How the results depend on the processing

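Of 38 alternative values, 31 were labelled close to the reported ones by a wide limit, and 7 moved. Values labelled close included 9 histone genes with the list of 962 peaks and 17 with 2000 bp upstream, against 13. They also included 7.88% of all genes with 2000 bp upstream, against 5.64%. With the list of the 962 strongest peaks, distinct peaks at histone promoters numbered 6 instead of 10, shared promoters with a summit 3 instead of 5, and 3.09% of all protein-coding genes had a summit instead of 5.64%. The count of histone genes with a summit was 24 instead of 13 with all pooled regions and 8 with assignment to the nearest gene within 5000 bp. The share of all genes under that nearest-gene rule was not counted. Restricted to windows over 90% unique, the count of histone genes was 5 of 11 by 36-base stretches, against 5.94% of all genes in that class. By 50-base stretches it was 11 of 20, and the share of all genes in that class was not counted. Leaving out each replicate gave 10 to 13 histone genes, 6 to 10 peaks, 4 to 5 shared promoters and 5.24 to 5.69% of all genes. Without replicate 1, his-59, his-60 and his-72 had no summit. Without replicate 2, his-5 and his-6 had none, and his-35 and his-41 had one. With 500 bp upstream, or with the gene's own 5′ end alone, his-72 had none. Depth is unknown, and identical copies cannot be told apart by reads, so an absent region there does not show absent binding. No paired analysis was possible because there is 1 group.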
